A study of Mus musculus with 11 samples.

Results

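The E2F and retinoblastoma family was followed through cultured fetal lung mesenchymal cells that carried both, 1 or no intact copies of Sp3, a zinc finger transcription factor that binds GC boxes. The genes were the 10 rows of the count files named E2f1 to E2f8, Rb1 and Rbl1, out of 24062 genes listed, and all 10 passed the filter on low counts in every comparison. The rule used gene names and no measured value. RNA-seq was available for 11 libraries of primary cells from mouse lungs at embryonic day 15, of which 4 were Sp3+/+ (WT), 4 were Sp3+/- and 3 were Sp3-/-. Breeding of Sp3 heterozygous mice gave the embryos, so the mutation was germline and present in every cell type, and the cells were enriched by fast attachment to plastic and passaged rather than sorted. The labels give all 3 groups the same embryonic day and name no treatment and no other allele. The file name of every library carries the tag CTRL. Nothing in the labels ties a library to a separate embryo, so p-values measure the spread between these libraries.

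E2F proteins bind DNA with a dimer partner of the DP family and set the transcription of genes for DNA replication and mitosis. E2f1, E2f2 and E2f3 are the activators, E2f4, E2f5 and E2f6 the canonical repressors, and E2f7 and E2f8 the atypical repressors, which bind DNA without a DP partner. Rb1 and Rbl1 encode pRB and p107, pocket proteins that bind E2Fs and release them once phosphorylated by cyclin-dependent kinases. Many E2F genes are themselves E2F targets.

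Reads on genes ranged from 9849111 in Sp3-/- 697-5 to 59297495 in Sp3+/- 685-5. Sp3 itself read 61.3 to 108 CPM (read counts scaled to library size) in WT, 52.4 to 70.8 CPM in Sp3+/- and 14.8 to 18.7 CPM in Sp3-/- libraries. Sp3-/- libraries thus stood apart from the others, and WT and Sp3+/- overlapped. A split of the libraries other than genotype ran through the data. All 3 Sp3-/- libraries had titles with no numeric suffix, as had WT 468-4 and Sp3+/- 697-4, whereas the other 6 titles ended in 2 or 3. The labels do not say what the suffix stands for. The macrophage markers Ptprc, Csf1r, Cd68, C1qa, C1qb, Mrc1 and Lyz2 summed to 335 to 815 CPM in the 6 libraries with a suffix and to 2790 to 10300 CPM in the 5 without one, and all 7 were above 0 in every library. Of 8 mesenchymal markers, all above 0 in every library, the sum was 20600 to 22100 CPM with and 7210 to 18900 CPM without a suffix. The epithelial markers Epcam, Cdh1, Krt8, Krt18, Nkx2-1 and Cldn18 summed to 14.5 to 31.1 CPM in the 8 libraries with Sp3. They summed to 47.5 to 150 CPM in Sp3-/-, where Krt18 and Krt8 had the highest means. Nkx2-1 went the other way, with low means of -2.6 log2 CPM in Sp3-/- and -2.06 in WT, and Cldn18 was too low to test. Mesothelial markers summed to 515 to 1110 CPM in WT, 1010 to 1840 CPM in Sp3+/- and 1190 to 4110 CPM in Sp3-/-. Endothelial markers summed to 30.4 to 71.6, 32.8 to 72.8 and 59.8 to 116 CPM in the same order, with overlap. The part of these cell type markers in the members' changes was not tested. In such mixed samples, fewer cells of a type and less RNA per cell cannot be told apart.

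Exon length was taken as the union of all exons annotated for a gene, 12.0 kb of a 15.8 kb span for E2f6. The order of members can depend on that choice, and other lengths were not tried. Per kilobase of exon so defined, E2f1 was the most abundant family transcript in WT cells, at 15.2 ± 0.9 CPM per kb (SD, n = 4), followed by E2f3 at 8.26 ± 0.11 and E2f4 at 5.97 ± 0.22 CPM per kb. These 3 did not overlap with each other or with any other member in WT libraries. Rb1 (3.71 ± 0.42) and E2f6 (3.68 ± 0.22 CPM per kb) came next and overlapped. E2f5 (2.63 ± 0.14) and Rbl1 (2.23 ± 0.55 CPM per kb) also overlapped. The lowest levels belonged to E2f8 (1.41 ± 0.60), E2f7 (1.14 ± 0.49) and the activator E2f2 (0.742 ± 0.16 CPM per kb), whose ranges overlapped as well. In Sp3-/- cells this order changed at several places. E2f4 reached 7.69 ± 0.69 CPM per kb (n = 3) and overlapped with E2f3 at 8.30 ± 0.98, and E2f2, at 1.45 ± 0.58, had a higher mean than E2f8 (0.804 ± 0.43) and E2f7 (0.368 ± 0.19 CPM per kb). E2f1 remained first at 11.3 ± 0.83 CPM per kb, with no overlap with the others.

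Sp3 recognises GC boxes and E2Fs recognise their own site, so the start regions of members were searched for both motifs. RefSeq windows on GRCm38.p6, each of 250 bases before to 50 after a listed start, were at hand for 7 of the 10 members, in 9 windows (E2f2 and E2f3 had a pair each). E2f4, E2f5 and Rb1 had no entry. The E2F site was searched as TTTCCCGC, TTTCGCGC, TTTGCCGC or TTTGGCGC, the GC box as GGGCGG and the cell cycle element CHR as TTTGAA, on both strands. An E2F site was found in 4 windows, those of E2f2, E2f3, E2f7 and Rbl1, whereas 2.26% of all 32851 windows in the table held one. GC boxes were found in 7 of the 9 windows, against 35.7% of all windows, and CHR in 3 windows, against 17.9%. The windows with an E2F site are shown because they hold both motifs or, for E2f2, the E2F site alone. Their listed starts lie within 1 base of the 5′ end of the gene in RefSeq. Capitals mark E2F sites and GC boxes on either strand, where GCGGGAAA is the reverse complement of TTTCCCGC and CCGCCC that of GGGCGG. Pairs of GC boxes may overlap by a base.
E2f2, chr4:136172024-136172323, plus strand: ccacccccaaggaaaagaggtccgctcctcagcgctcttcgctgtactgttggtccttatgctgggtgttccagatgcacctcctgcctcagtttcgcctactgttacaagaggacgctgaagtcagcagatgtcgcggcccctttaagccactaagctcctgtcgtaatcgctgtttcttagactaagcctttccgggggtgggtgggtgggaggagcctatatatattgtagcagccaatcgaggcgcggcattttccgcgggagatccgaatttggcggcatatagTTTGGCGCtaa
E2f3, chr13:29986014-29986313, minus strand: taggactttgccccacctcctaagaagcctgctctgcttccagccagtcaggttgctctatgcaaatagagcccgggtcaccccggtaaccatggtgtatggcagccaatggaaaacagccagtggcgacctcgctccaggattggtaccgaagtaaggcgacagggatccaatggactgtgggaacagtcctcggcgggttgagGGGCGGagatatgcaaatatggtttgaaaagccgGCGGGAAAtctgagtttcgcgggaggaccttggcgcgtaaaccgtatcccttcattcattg
E2f7, chr10:110745189-110745488, plus strand: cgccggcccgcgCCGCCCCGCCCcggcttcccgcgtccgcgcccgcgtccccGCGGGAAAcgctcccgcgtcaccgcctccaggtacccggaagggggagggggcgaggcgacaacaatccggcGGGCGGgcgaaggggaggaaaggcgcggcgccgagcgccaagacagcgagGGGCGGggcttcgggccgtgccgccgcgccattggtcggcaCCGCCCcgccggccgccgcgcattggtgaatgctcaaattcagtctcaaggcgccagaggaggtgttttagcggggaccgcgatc
Rbl1, chr2:157204485-157204784, minus strand: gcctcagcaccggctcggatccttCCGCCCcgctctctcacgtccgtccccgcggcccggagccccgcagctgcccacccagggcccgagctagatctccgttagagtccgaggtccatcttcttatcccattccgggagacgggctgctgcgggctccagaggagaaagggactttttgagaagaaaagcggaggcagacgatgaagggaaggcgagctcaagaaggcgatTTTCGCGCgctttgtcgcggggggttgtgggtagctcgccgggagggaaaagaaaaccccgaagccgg

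The E2f7 window held 5 GC boxes and 1 E2F site, and 2.71% of all windows held 5 or more GC boxes. The E2f1 window, whose listed start lies 466 bases inside the gene, also held 5 GC boxes but no E2F site of these letters, and that of E2f8, 477 bases inside, held 1 GC box and 1 CHR. The first E2f2 window held no GC box. That of E2f6 held none of the motifs. These are matches of letters and not bound sites.

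The effect of losing Sp3 altogether was examined by comparing Sp3-/- with WT libraries, the genotypes the study set against each other. Of the 10 members, E2f1 fell and E2f4 rose, at an adjusted p below 0.05 (quasi-likelihood test of edgeR, adjusted by Benjamini-Hochberg over the 14025 genes tested), and 18.5% of all genes tested were called. E2f2 (0.99 on the log2 scale) and E2f7 (-1.58) had larger differences than these, and both missed the threshold. Libraries of the genotypes did not overlap for 5 members (E2f1, E2f2, E2f4, E2f5 and E2f6), against 31.6% of all genes tested. In value, 5 members were higher and 5 lower, and the median size of their log2 fold change was 0.34, beside 0.32 over all genes tested.

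**Figure D1:**
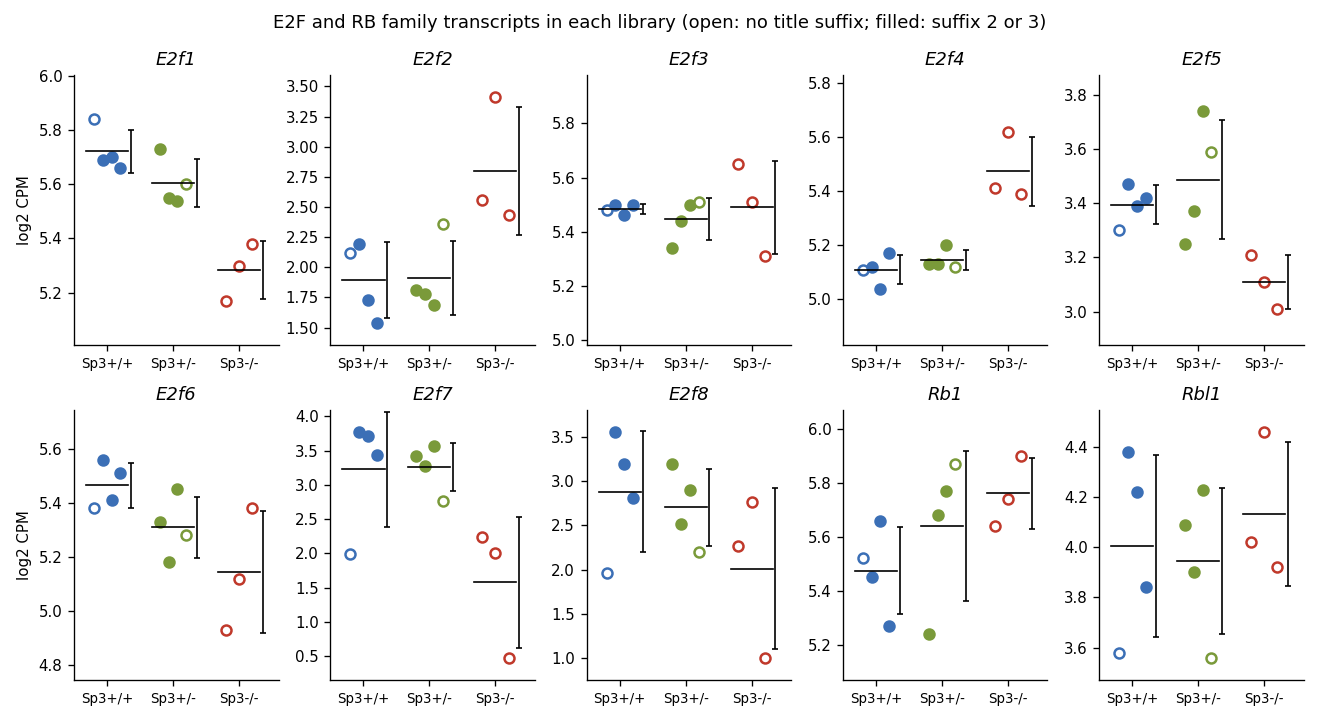
Level of each family transcript in every library, as log2 CPM, by genotype. Lines are group means, bars are SD, open points are libraries with no title suffix and filled points those with suffix 2 or 3, and each panel has its own axis. E2f1 in the 3 Sp3-/- libraries lies between 5.17 and 5.38, below the lowest other library at 5.54, and E2f4 lies between 5.39 and 5.62, above the highest other library at 5.20.

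E2f1 (GRCm38.p6 chromosome 2, 154559400 to 154569892, minus strand) is the activator best known for driving entry into S phase. It read 57.3, 51.4, 52.1 and 50.3 CPM in WT 468-4, 685-2, 697-1 and 697-3. In Sp3-/- 685-1, 697-2 and 697-5 it read 36, 39.4 and 41.7 CPM. Every Sp3-/- library was below every WT library, and the highest WT value came from 468-4, the WT library without a suffix. The log2 fold change was -0.43 ± 0.09 (SE, adjusted p = 0.0252, edgeR). The call was lost when 685-2, 697-1, 697-2 or 697-3 was left out, with adjusted p of 0.0583, 0.0636, 0.0850 and 0.0588 by edgeR, while the change stayed between -0.48 and -0.38. With the title suffix as a covariate it was -0.52 ± 0.09 (adjusted p = 0.0142, edgeR). The suffix in the file names differs for Sp3+/- 697-4, and as a covariate it gave -0.56 ± 0.11 (adjusted p = 0.0555, edgeR), which misses the threshold.

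E2f2, a second activator expressed at a low level here, read 4.27, 4.49, 3.25 and 2.84 CPM in the WT libraries, in the same order. It read 5.84, 10.6 and 5.33 CPM in Sp3-/- 685-1, 697-2 and 697-5. No library overlapped, and 697-2 stood well above the other 2. The log2 fold change was 0.99 ± 0.31 (adjusted p = 0.0602, edgeR), which misses the threshold, and was 0.59 without 697-2. It was called by DESeq2 (1.01, adjusted p = 0.0151), by limma-voom (1.09, adjusted p = 0.0451) and by edgeR with all 11 libraries in a single fit (0.98, adjusted p = 0.0286). The macrophage markers summed to 10300 CPM in 697-2, 9760 CPM in 697-5, 2790 CPM in 685-1 and 2890 CPM in WT 468-4, and their part in the E2f2 level was not tested. With the suffix as a covariate the difference was 0.66 ± 0.36 (adjusted p = 0.261, edgeR).

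E2f3, the remaining activator, was close to the same level in all WT libraries, 44.0 to 45.3 CPM. It read 50.2, 45.4 and 39.6 CPM in Sp3-/- libraries, on both sides of WT. Its log2 fold change was 0.02 ± 0.10 (adjusted p = 0.918, edgeR). An RNA gene on the opposite strand, Gm60559, covers 12.1% of the exon bases of E2f3, and the counting is not stated to use strand.

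E2f4 (GRCm38.p6 chromosome 8, 105297663 to 105305370, plus strand) encodes the main E2F bound to pocket proteins in resting cells. It read 34.6, 34.7, 32.8 and 35.8 CPM in WT 468-4, 685-2, 697-1 and 697-3. It read 42.4, 49.0 and 41.8 CPM in Sp3-/- 685-1, 697-2 and 697-5. All Sp3-/- libraries were above all WT libraries, and the WT library without a suffix lay among the other WT libraries. The log2 fold change was 0.37 ± 0.10 (adjusted p = 0.0369, edgeR). The adjusted p by edgeR was 0.0880, 0.0940, 0.1320, 0.0818 and 0.0573 without 685-2, 697-1, 697-2, 697-3 and 697-5, so the call rested on each of these, while the change stayed between 0.29 and 0.42. It was 0.38 ± 0.10 (adjusted p = 0.0535, edgeR) with the title suffix and 0.36 ± 0.13 (adjusted p = 0.197, edgeR) with the file name suffix as a covariate, and 0.36 with no filter on low counts (adjusted p = 0.0554, edgeR).

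E2f5, which like E2f4 binds p107 and p130, read 9.78 to 11.1 CPM in WT and 9.21, 8.58 and 7.99 CPM in Sp3-/- 685-1, 697-2 and 697-5. The groups did not overlap, and the log2 fold change of -0.28 ± 0.13 missed the threshold (adjusted p = 0.159, edgeR). The gene Rbis lies on the opposite strand and shares 43.4% of the exon bases of E2f5, so without strand their reads cannot be told apart. E2f6, a pocket-independent repressor that works with Polycomb proteins, read 41.6 to 47.3 CPM in WT and 30.3, 34.8 and 41.6 CPM in Sp3-/- libraries, where 697-5 reached the lowest WT library to 3 digits. Its log2 fold change was -0.31 ± 0.12 (adjusted p = 0.114, edgeR).

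E2f7 and E2f8, which repress E2F targets late in S phase, were the most variable members. E2f7 read 3.91, 13.6, 13 and 10.7 CPM in WT 468-4, 685-2, 697-1 and 697-3. It read 4.64, 3.97 and 1.33 CPM in Sp3-/- 685-1, 697-2 and 697-5. WT 468-4, without a suffix, lay among the Sp3-/- libraries. A log2 fold change of -1.58 ± 0.54 missed the threshold (adjusted p = 0.0758, edgeR) and shrank to -0.56 ± 0.46 with the title suffix as a covariate (adjusted p = 0.454, edgeR). E2f7 was called without WT 468-4 (-1.84, adjusted p = 0.0163, edgeR), by DESeq2 (-1.60, adjusted p = 0.0121) and by edgeR with all 11 libraries in a single fit (-1.58, adjusted p = 0.0313). The lowest library held 13 E2f7 reads, with an exact Poisson interval of 6.92 to 22.2 that covers counting error only.

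E2f8 read 3.82, 11.7, 9.05 and 6.93 CPM in the WT libraries in that order, and 4.76, 6.73 and 1.95 CPM in Sp3-/- 685-1, 697-2 and 697-5. WT 468-4 was again among the Sp3-/- libraries. The log2 fold change was -0.76 ± 0.49 (adjusted p = 0.294, edgeR) and was 0.01 ± 0.48 with the suffix as a covariate (adjusted p = 0.990, edgeR), so its direction is not settled. Across all 11 libraries, E2f7 read 9.60 to 13.6 CPM in the 6 with a suffix and 1.33 to 6.76 CPM in the 5 without one, with no overlap, whatever the genotype. E2f8 read 5.67 to 11.7 CPM with and 1.95 to 6.73 CPM without a suffix. Gm2788, an RNA gene on the opposite strand, shares 20.2% of the exon bases of E2f8.

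Of the pocket proteins, Rb1 read 38.6 to 50.7 CPM in WT and 49.9, 53.3 and 59.7 CPM in Sp3-/- 685-1, 697-2 and 697-5, with an overlap. Its log2 fold change was 0.28 ± 0.12 (adjusted p = 0.125, edgeR). Rbl1, itself an E2F target, read 11.9 to 20.8 CPM in WT and 16.2, 22.0 and 15.1 CPM in Sp3-/- libraries, and its log2 fold change was 0.13 ± 0.23 (adjusted p = 0.711, edgeR). The lowest WT value was again that of 468-4. With the suffix as a covariate the Rbl1 difference was 0.56 ± 0.23 (adjusted p = 0.149, edgeR).

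**Figure D2:**
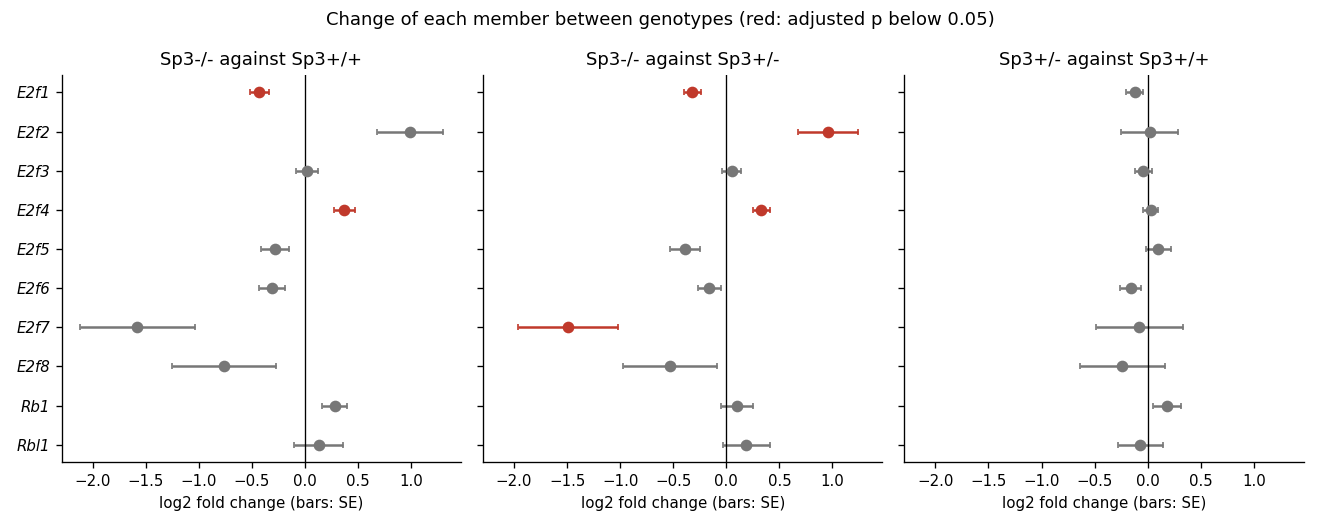
Log2 fold change of each member (points) with its SE (bars) in the 3 genotype comparisons, red where the adjusted p was below 0.05. In Sp3-/- against Sp3+/+, E2f1 lies at -0.43 and E2f4 at 0.37, and E2f7 has the widest bar of the family, 0.54. In Sp3+/- against Sp3+/+ no member is red.

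Comparing Sp3-/- with Sp3+/- libraries asks whether the loss of the remaining copy changed the family. This comparison and the preceding one share the 3 Sp3-/- libraries, so their values are set side by side and are not independent. Of the 10 members, 4 were called in Sp3-/- against Sp3+/- libraries, E2f2 and E2f4 higher and E2f1 and E2f7 lower, where 25.5% of 14130 genes tested were called. E2f1 read 53.1, 46.7, 46.4 and 48.5 CPM in Sp3+/- 468-3, 685-5, 685-7 and 697-4, all above the Sp3-/- libraries. Its log2 fold change was -0.32 ± 0.08 (adjusted p = 0.0210, edgeR). E2f4 read 34.9, 35.0, 36.6 and 34.6 CPM in these libraries, all below Sp3-/-, and its log2 fold change was 0.33 ± 0.08 (adjusted p = 0.0131, edgeR). E2f2 read 3.44, 3.38, 3.16 and 5.07 CPM, where the highest value, just under the lowest Sp3-/- library, was that of 697-4 without a suffix. Its log2 fold change of 0.96 ± 0.28 (adjusted p = 0.0328, edgeR) was 0.58 with an adjusted p of 0.168 by edgeR when Sp3-/- 697-2 was left out.

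E2f7 read 10.6, 9.60, 11.8 and 6.76 CPM in Sp3+/- 468-3, 685-5, 685-7 and 697-4, and its log2 fold change was -1.49 ± 0.47 (adjusted p = 0.0398, edgeR). With the suffix as a covariate none of the 4 calls held. E2f1 was then at -0.35 ± 0.09 (adjusted p = 0.0583, edgeR), E2f4 at 0.34 ± 0.10 (adjusted p = 0.0892, edgeR) and E2f7 at -0.62 ± 0.44 (adjusted p = 0.406, edgeR). Without Sp3-/- 697-2 none of the 4 was called either, with E2f1 at -0.33 (adjusted p = 0.0655, edgeR), E2f4 at 0.26 (adjusted p = 0.0606, edgeR) and E2f7 at -1.62 (adjusted p = 0.0920, edgeR). E2f5 read 9.47 to 13.3 CPM in Sp3+/- and did not overlap with Sp3-/-, at a log2 fold change of -0.39 ± 0.14 (adjusted p = 0.0584, edgeR). The other 5 members, E2f3, E2f6, E2f8, Rb1 and Rbl1, overlapped between these genotypes and had log2 fold changes between -0.53 and 0.19. In all, 5 members did not overlap, against 34.2% of all genes tested.

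Sp3+/- against WT libraries tested for an effect of a single lost copy. No member was called by edgeR, as was true of all 14130 genes tested (0%), and 0 members and 246 genes had an unadjusted p below 0.05. DESeq2 also called 0 genes. Sp3 itself, at a log2 fold change of -0.49 ± 0.16, was among the genes not called. The absence of a call here therefore does not show the absence of an effect. The members' log2 fold changes ran from -0.24 (E2f8, SE 0.40) to 0.18 (Rb1, SE 0.13). E2f1 was at -0.12 ± 0.08, E2f4 at 0.03 ± 0.07 and E2f2 at 0.02 ± 0.27. No member separated the 2 genotypes, against 1.41% of all genes tested.

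Neither the activators nor the canonical repressors moved as a block. Both atypical repressors were lower in value in Sp3-/- than in WT libraries, E2f7 at -1.58 and E2f8 at -0.76. Neither was called, and the direction of E2f8 is not settled. Among the activators 1 was called lower (E2f1) and none higher in Sp3-/- against WT libraries, with E2f2 and E2f3 at the values given. Among the canonical repressors 1 was called higher (E2f4), with E2f5 and E2f6 at negative values that missed the threshold. The mean change of the activators exceeded that of the canonical repressors by 0.26 on the log2 scale and that of the atypical repressors by 1.36. With the suffix as a covariate these differences were 0.08 and 0.32, and the first was 0.15 without 697-2 and 0.34 without 697-5. The activator mean rested on E2f2 (0.99, not called), with E2f3 at 0.02 and E2f1 at -0.43. The median change was 0.02 for activators, -0.28 for canonical repressors, -1.17 for atypical repressors and 0.21 for pocket proteins, and 0 over all genes tested.

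The summed activator level was 98.5 to 106 CPM in WT, 93.5 to 99.1 CPM in Sp3+/- and 86.7 to 95.4 CPM in Sp3-/- libraries. The summed canonical repressor level was 85.8 to 93.1, 81.3 to 93.5 and 81.9 to 92.4 CPM. The activator sums of Sp3-/- and WT libraries did not overlap, and those of the canonical repressors overlapped between all genotypes. The lower activator sum rested on E2f1, with a mean of 52.8 CPM in WT and 39 CPM in Sp3-/-. Means of E2f2 (3.71 and 7.25 CPM) and E2f3 (44.8 and 45.1 CPM) did not fall. The summed atypical level was 7.73 CPM in WT 468-4 and 17.7 to 25.3 CPM in the other WT libraries, 11.3 to 19.7 CPM in Sp3+/- and 3.28 to 10.7 CPM in Sp3-/- libraries.

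The pair of members called in opposite directions was also expressed as a ratio within each library, chosen after the values had been seen and given without a test. WT 468-4, 685-2, 697-1 and 697-3 held 1.66, 1.48, 1.59 and 1.40 E2f1 reads per E2f4 read. Sp3+/- 468-3, 685-5, 685-7 and 697-4 held 1.52, 1.33, 1.27 and 1.40. Sp3-/- 685-1, 697-2 and 697-5 held 0.850, 0.804 and 0.998. Every Sp3-/- ratio was below that of each of the 8 libraries with an Sp3 copy, including the WT and the Sp3+/- library without a suffix. E2f1 and E2f4 each set the Sp3-/- libraries apart already, so this separation follows from theirs and is no further support. Reads were not scaled by exon length (3.46 kb for E2f1, 5.78 kb for E2f4), so a ratio of 1 does not mark equal levels. Per kilobase by these lengths, E2f1 stayed above E2f4 in Sp3-/- libraries, at 10.4 to 12 against 7.24 to 8.48 CPM per kb. The highest Sp3-/- ratio, that of 697-5, came from 407 E2f1 and 408 E2f4 reads. Its exact binomial 95% interval was 0.867 to 1.15, counting error only. The lowest ratio with an Sp3 copy, 1.27 in 685-7, had an interval of 1.19 to 1.35.

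**Figure D3:**
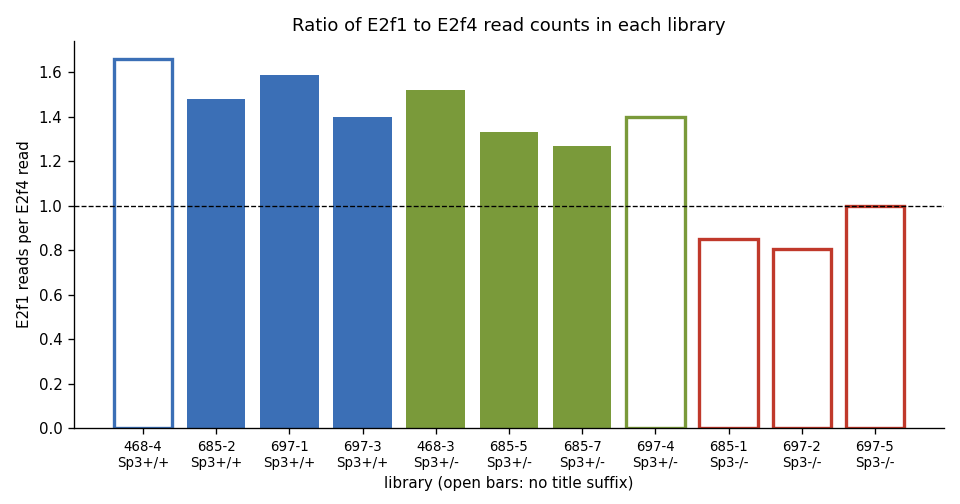
E2f1 reads per E2f4 read (y axis, from 0) in each of the 11 libraries, with open bars for libraries without a title suffix. The dashed line at 1 marks equal read counts, not scaled by exon length. The WT bars run from 1.40 to 1.66, the Sp3+/- bars from 1.27 to 1.52 and the Sp3-/- bars from 0.804 to 0.998.

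E2f1 and E2f2 also parted. WT libraries held 11.4 to 17.7 E2f1 reads per E2f2 read, Sp3+/- libraries 9.57 to 15.4 and Sp3-/- libraries 3.72 to 7.83. The ratio of E2f7 to E2f8 reads was 1.02 to 1.55 in WT, 1.17 to 1.69 in Sp3+/- and 0.590 to 0.977 in Sp3-/- libraries. Both ratios were likewise chosen after the values had been seen, and in both the lowest library with Sp3 (697-4 and 468-4) had no suffix. WT 468-4 held 139 E2f7 and 136 E2f8 reads, against 167 and 171 in Sp3-/- 685-1 and 13 and 19 in 697-5. Whether the gap in the E2f7 to E2f8 ratio exceeds counting error was not tested.

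The partners, regulators and targets of the family were followed in 60 further genes on 6 lists, all of which were tested. In Sp3-/- against WT libraries 45 were lower and 15 higher in value, 7 were called lower and 1 higher, and 9.77% and 8.76% of all genes tested were called lower and higher. Their median log2 fold change was -0.46, beside 0 over all genes. With the suffix as a covariate 4 were called, where 9.41% of all genes were, and the median was 0.04.

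The dimer partners Tfdp1 (-0.22 ± 0.15) and Tfdp2 (0.38 ± 0.15) missed the threshold. Rbl2, which encodes the pocket protein p130 that pairs with E2f4 in resting cells, rose, with a log2 fold change of 0.41 ± 0.08 (adjusted p = 0.0192, edgeR). All 6 genes of the E2f6 complex (Pcgf6, L3mbtl2, Mga, Max, Rnf2 and Ring1) had values between 0.03 and 0.28 and none was called. The MuvB core, which joins p130 or B-Myb on cell cycle promoters, had no subunit called, with Lin9, Lin37, Lin54 and Rbbp4 between -0.04 and 0.02 and Lin52 at 0.30 ± 0.17. Of its partners on the list, Foxm1 was called, at -1.40 ± 0.39 (adjusted p = 0.0465, edgeR), and Mybl2, which encodes B-Myb, was at -0.84 ± 0.50. Foxm1 was at -0.53 with the title suffix as a covariate (adjusted p = 0.254, edgeR), and was called in 1 of 7 fits with a library left out.

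Among 14 kinases, cyclins and inhibitors that set the phosphorylation of pocket proteins, 4 fell and none rose. Of these 4, cyclin E1 (Ccne1) had the largest change, -1.18 ± 0.25 (adjusted p = 0.0235, edgeR), and Ccna2, which encodes cyclin A2, was at -1.22 ± 0.58 without passing the test. The D cyclins Ccnd3 (-0.64 ± 0.09, adjusted p = 0.0104, edgeR) and Ccnd2 (-0.63 ± 0.13, adjusted p = 0.0235, edgeR) and the kinase inhibitor Cdkn2d (-0.62 ± 0.16, adjusted p = 0.0367, edgeR) fell less. The calls of Ccne1, Ccnd3 and Ccnd2 held with the title suffix as a covariate, as did that of Rbl2, and that of Cdkn2d did not (-0.40, adjusted p = 0.126, edgeR). All 5 of these calls were lost without Sp3-/- 697-2, with adjusted p of 0.0525 (Ccnd3) to 0.103 (Ccnd2) by edgeR. Over the 7 fits with a library left out, Ccnd3 was called in 6, Rbl2 in 4, Ccnd2 in 3 and Ccne1 and Cdkn2d in 2 each. Ccnd1 was at 0.01 ± 0.23 and Cdkn1a, which encodes p21, at 0.04 ± 0.16.

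The 20 S phase targets had a median log2 fold change of -0.46, with 17 of them lower in value and 1 called, the ribonucleotide reductase subunit Rrm2 (-1.43 ± 0.41, adjusted p = 0.0491, edgeR). The MCM helicase genes Mcm2 to Mcm7 lay between -0.59 and -0.27, and Pcna, at 0.56 ± 0.17, was higher without passing the test (adjusted p = 0.0525, edgeR). With the title suffix as a covariate the S phase median was 0.14 and none was called, with Rrm2 at -0.53 (adjusted p = 0.287, edgeR). Leaving out a library gave medians of -0.61 to -0.28, the smallest without 697-5, and 0 to 6 calls, with 6 without 468-4 and 0 without any of 685-2, 697-1, 697-2, 697-3 and 697-5. All 10 mitotic targets were lower in value, with a median of -1.20, and 1 was called, the spindle checkpoint gene Cdc20 (-2.02 ± 0.57, adjusted p = 0.0490, edgeR). With the title suffix as a covariate the mitotic median was -0.07 and none was called, with Cdc20 at -0.57 (adjusted p = 0.374, edgeR). Without WT 468-4 the number called was 8, and without any other library of the comparison it was 0. Calls over all genes also rose without WT 468-4, from 2599 of 14025 to 4179 of 13970.

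**Figure D4:**
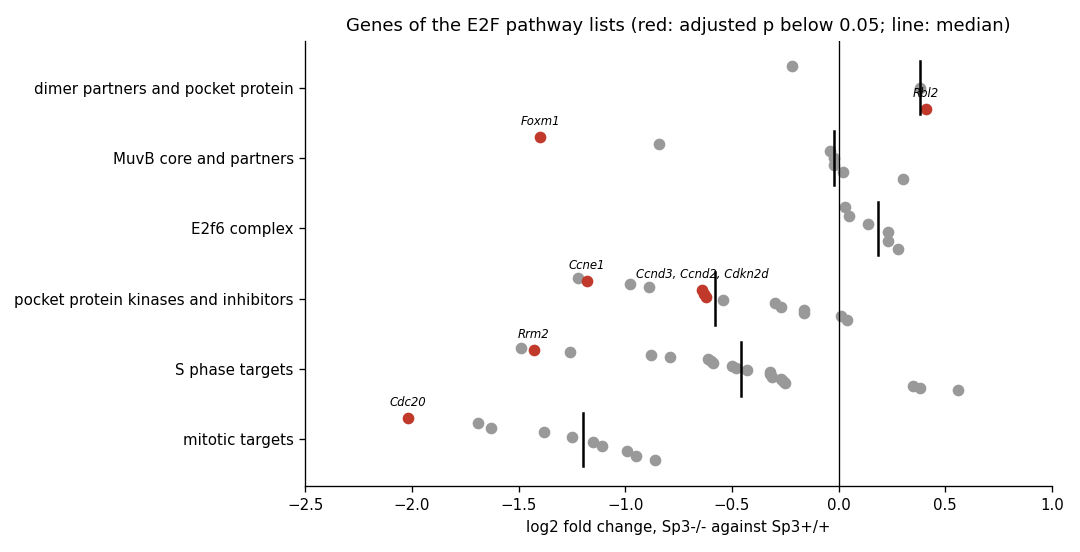
Log2 fold change of each of the 60 listed genes (points) in Sp3-/- against Sp3+/+, by list, with named red points where the adjusted p was below 0.05 and a vertical line at each list's median. The medians run from 0.38 for the dimer partners to -1.20 for the mitotic targets.

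The target lists followed the suffix. The mean level of the 10 mitotic genes was 4.49 to 5.33 log2 CPM in the 6 libraries with a suffix and 2.56 to 3.72 in the 5 without one, where WT 468-4 had 3.29 and Sp3+/- 697-4 had 3.69. That of the 20 S phase genes was 4.43 to 4.88 with and 3.53 to 4.25 without a suffix. E2f7 split in the same way. E2f1 did not, as it was highest of all libraries in WT 468-4, at 5.84 log2 CPM, where the mitotic and S phase means were lower than in Sp3-/- 685-1 and 697-2. Leaving WT 468-4 out raised the number of listed genes called from 8 to 23, and calls over all genes from 2599 of 14025 to 4179 of 13970. All 3 Sp3-/- libraries lack a suffix, so genotype and suffix cannot be told apart beyond the WT and the Sp3+/- library without one. This holds for every member, E2f1 and E2f4 included, and for the target lists.

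**Figure D5:**
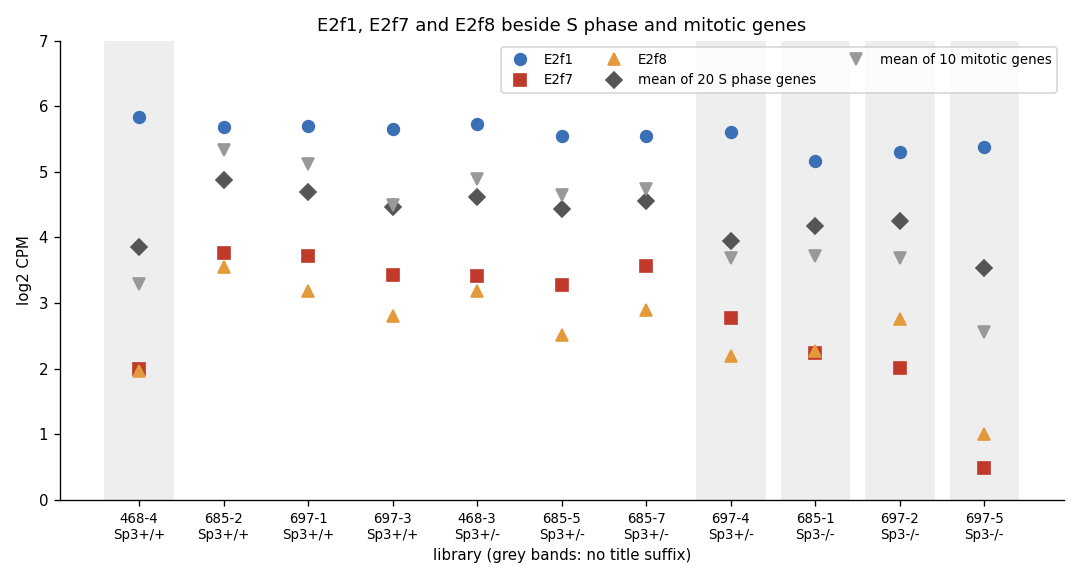
Level in log2 CPM of E2f1, E2f7 and E2f8, and the mean of the S phase and mitotic lists, in each library, with grey bands marking libraries without a title suffix. E2f7 lies at or below 2.77 in every banded library and at or above 3.27 elsewhere, whereas E2f1 lies at 5.84 in the banded WT library 468-4 and at 5.17 to 5.38 in the banded Sp3-/- libraries.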

How the data were processed

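RNA from primary fetal lung mesenchymal cells of 11 samples was made into TruSeq libraries from 10 ng RNA and sequenced as 50 bp single end reads. The authors checked reads with FastQC 0.10.1, aligned them with STAR 2.4.5a to mm10 and deposited whole-number read counts per gene symbol from HTSeq. Which annotation and strand setting were used is not given in the sources used here. Each file also holds 5 tallies of reads assigned to no gene, 38.4 to 40.9% of its total, which entered neither library sizes nor tests.

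Genotypes were taken from the labels. A gene was tested if it exceeded 1 CPM in 1 library or more, with edgeR 4.0.16 in R 4.3.3 (TMM, robust dispersion and quasi-likelihood fit), with Benjamini-Hochberg adjustment over all genes and a threshold of 0.05. Sp3-/- against Sp3+/+ used their 7 libraries, and comparisons with Sp3+/- all 11. Each SE was derived from the F statistic and the fold change. Log2 CPM had a prior count of 2. No libraries of a genotype were duplicates, since the chi-square of their counts divided by its degrees of freedom was 16.6 or more for every pair. Exon lengths, the union of all exons annotated for a gene, came from GENCODE vM39 on GRCm39, a later annotation than that counted. Coordinates and promoters came from RefSeq on GRCm38.p6. The protein comparison that had been planned was not run.

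Alternatives were DESeq2 1.42.0, limma-voom (limma 3.58.1) with libraries sharing the first title number correlated, library size alone, no filter, filterByExpr, all 11 libraries in a single fit, the suffix in the titles or in the file names as a covariate, the first title number as a block, libraries without a suffix only, and each library left out. Members, lists and tests were chosen with earlier results of these data known. All members and Sp3 are named, with at most 3 called genes of largest change per list and others where a sentence needs them, and for E2f1 and E2f4 the 5 most similar genes. Adgre1, listed as a macrophage marker, was not analysed here.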

Additional observations from a re-analysis of the deposited data

Results flagged for a closer look

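Dixon's test on groups of 4 libraries, applied to the members, their class levels and ratios and the lists in WT and in Sp3+/- libraries, set 2 values apart in 64 groups, where chance alone sets apart about 1 in 20. E2f4 in Sp3+/- 685-7 was at 5.20 log2 CPM, while the other 3 Sp3+/- libraries lay between 5.12 and 5.13. That value was still below the lowest Sp3-/- library at 5.39. The mean of the 7 macrophage markers in WT 468-4 was 7.37 log2 CPM, while the other 3 WT libraries lay between 5.17 and 5.40.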

How the results depend on the processing

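Of 570 values of the members' changes under alternatives, 538 kept their direction and 32 did not, 17 of these in Sp3+/- against WT and none of the 32 with an adjusted p below 0.05. In Sp3-/- against WT, the 2 calls became 4 by DESeq2, 4 with all 11 libraries in a single fit, 1 with no filter, 1 with the title suffix as a covariate, 0 with the file name suffix, 0 with libraries without a suffix only, and 0 to 3 with a library left out. The setting with libraries without a suffix only leaves 1 WT and 1 Sp3+/- library, whose spread is assumed to equal that of Sp3-/-, so its lost calls say little, and E2f1 and E2f4 were there at -0.56 and 0.35 against WT. In Sp3-/- against Sp3+/-, the 4 calls became 0 with either suffix and 0 without suffixed libraries, and 0 to 4 with a library left out, the 0 being without 697-2 and 2 without 685-5 or 685-7. The excess of the activators' mean change over that of the canonical repressors, 0.26, became 0.08, 0.10 and 0.09 with the title suffix, the file name suffix and libraries without a suffix only, and that over the atypical repressors, 1.36, became 0.32, 0.03 and 0.05. The 8 listed pathway genes called became 4 with the title suffix, 0 with libraries without a suffix only, and 0 to 23 with a library left out (23 without 468-4, 0 without 697-2, 1 without 697-3, and 2 without 685-2, 697-1 or 697-5), and their median of -0.46 became 0.04 with the title suffix and 0.14 with libraries without a suffix only, where the S phase and mitotic medians were 0.27 and 0.13. The cause of these differences was not tested.

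Directions turned as follows. E2f8 in Sp3-/- against WT was at 0.01, 0.28 and 0.25 with the title suffix, the file name suffix and libraries without a suffix only, and against Sp3+/- at 0.30, 0.77 and 0 in the same order. Rb1 against Sp3+/- was at -0.07, -0.02 and -0.12 in that order, and ranged from -0.01 to 0.18 with a library left out. E2f7 against Sp3+/- was at 0.05 with the file name suffix. E2f3 ranged from -0.07 to 0.10 (against WT) and from -0.03 to 0.13 (against Sp3+/-) with a library left out, and was at -0.02 against Sp3+/- with libraries without a suffix only. Rbl1 against WT ranged from -0.07 to 0.25 with a library left out. In Sp3+/- against WT, limma-voom gave -0.01 for E2f2, 0.21 for E2f7 and 0.04 for Rbl1, the file name suffix gave -0.10 for E2f2, the title suffix 0.06 for E2f7, and libraries without a suffix only gave 0.03 for E2f3, 0.79 for E2f7 and 0.25 for E2f8. With a library left out, E2f2 ranged there from -0.16 to 0.12, E2f7 from -0.35 to 0.07, E2f8 from -0.46 to 0.01 and Rbl1 from -0.18 to 0.06.

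Over all genes, the 2599 calls in Sp3-/- against WT were 4297 by DESeq2, 3977 with all 11 libraries, 1329 with the title suffix, 163 with the file name suffix, 0 by edgeR with libraries without a suffix only (1337 at an unadjusted p below 0.05), and 282 to 4179 with a library left out, lowest without 697-2 and highest without 468-4, with 766 to 893 without 685-2, 697-1 or 697-3 and 1408 without 697-5. The 3607 calls against Sp3+/- were 763 with the title suffix, 0 with the file name suffix (1168 unadjusted), 0 with libraries without a suffix only (1386 unadjusted) and 1490 to 4245 with a library left out, lowest without 697-2.

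Whether the first title number pairs the libraries was not settled. Deviations of libraries that share it correlated over 0.1 in 7 of 14 pairs (median 0.11), against 10 of 26 other pairs (median -0.01). Some pairs that share the number differ in suffix, so these correlations cannot decide it. With this number as a replicate block, E2f1 was called in Sp3-/- against WT at -0.39 (adjusted p = 0.0310, edgeR), E2f7 was gained at -1.87 (adjusted p = 0.0172, edgeR) and E2f4 was lost at 0.37 (adjusted p = 0.0580, edgeR), over 4031 calls in all, and in Sp3-/- against Sp3+/- E2f1 and E2f4 were called and E2f2 and E2f7 were not, over 2956 calls. Depth limits E2f2, E2f7 and E2f8 most, whose lowest libraries held 48, 13 and 19 reads.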

Other observations

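The genes whose log2 CPM followed E2f1 most closely over the 11 libraries were Ica1 (Pearson r = 0.983), Nucb2 (0.963), St6galnac6 (0.960), Snhg12 (0.960) and Arhgef4 (0.959), out of 11203 tested genes with a mean above 2 log2 CPM. Those closest to E2f4 were Wdr5 (r = 0.971), Slc38a7 (0.965), Mto1 (0.964), Asxl2 (0.962) and 1700017B05Rik (0.954). These are descriptions without a test, and the libraries share the split by genotype and title suffix. No listed partner, kinase or target of the E2F family was among these 10 genes.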
